A study of Ipomoea batatas with 12 samples.

Results

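The genes described here are those of gibberellin and brassinosteroid synthesis, inactivation, perception and response in sweetpotato roots, 85 of the 45142 genes of the deposited table. They were chosen by words in the deposited gene descriptions (gibberellin, ent-kaurene and ent-copalyl enzymes, DELLA, GAST1, snakin, brassinosteroid, BRASSINAZOLE, BRI1, and the words cytochrome P450 90 and cytochrome P450 85A), and the rule uses no expression value. Gibberellin genes made up 62 members and brassinosteroid genes 23. Root RNA came from plants labelled MBP3 overexpression (MBP3-OE), with 3 libraries (numbered 2, 3 and 8) at each of 20 days, 1 month and 4 months, and from wild-type (WT) Taizhong 6, with 1 library at each of these ages. The WT plants grew in a greenhouse. The study calls the WT stages FR (fibrous roots), DR (tuberous roots still developing) and MR (tuberous roots when mature). Each WT sample was pooled from the roots of several plants. The study's methods describe the WT roots only. For DR, the label says 1 month and the series description 60 days after planting. The promoter that drives MBP3 is not given in the sources used here, nor is it stated whether the numbers 2, 3 and 8 are lines or plants, so the tests measure only the spread between these samples.

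Deposited counts summed to 39424503 to 58486728 per library, and levels are given as the authors' FPKM, which is scaled for gene length. Differences were tested on the counts with edgeR's quasi-likelihood test in 1 fit of the 6 groups. The 28065 genes whose FPKM averaged 0.5 or more were tested, and called means here a fold of at least 2 with a p below 0.05 after Benjamini-Hochberg adjustment. Because WT had 1 library per age, its spread was taken from the MBP3-OE libraries, whose biological coefficient of variation was 0.234, 0.405 and 0.5 at the 3 ages. MBP3 (g4107) was at 67.3 to 78.4 FPKM in the 20-day MBP3-OE libraries against 15.3 FPKM in WT, but at 55.8 to 121 FPKM in the 4-month MBP3-OE libraries against 83.2 FPKM in the library labelled WT 4 months, so the labels are not separated by this gene at 4 months. The sum of 42 sporamin genes, which mark storage tissue, was 495 to 1205 FPKM, 3227 to 13340 FPKM and 65840 to 136200 FPKM at the 3 ages in MBP3-OE, and 183, 2203 and 91500 FPKM in WT. The sum of 46 Casparian strip genes was 615 to 700 FPKM, 490 to 601 FPKM and 212 to 318 FPKM in MBP3-OE, and 1107, 555 and 273 FPKM in WT. These genes were picked by words in their descriptions and taken as markers of the endodermis of thin roots. Whether all of them are specific to the endodermis was not tested. Between 31 and 42 of these 46 genes were above 0 in a library. The sum of 5 secondary wall cellulose synthase genes, which mark xylem, was 48.8 to 77.2 FPKM, 15.7 to 38.8 FPKM and 7.34 to 8.34 FPKM in MBP3-OE, and 48.3, 33.0 and 6.82 FPKM in WT, with 3 to 5 of the 5 above 0 in a library. The sum of 2 cyclin-B genes, which mark dividing cells, was 11.3 to 16.1 FPKM, 21.2 to 54.4 FPKM and 27.5 to 53.7 FPKM in MBP3-OE, and 18.6, 24.7 and 52.4 FPKM in WT, with both above 0 in every library. The sum of 2 histone H4 genes, the other marker of dividing cells, was 104 to 179 FPKM at 20 days in MBP3-OE. It was 83.9 to 109 FPKM at 1 month and 55.0 to 145 FPKM at 4 months, so the ages overlapped. In WT it was 84.0, 56.1 and 99.8 FPKM, and 1 or 2 of these genes were above 0 in a library. In MBP3-OE the sporamin, Casparian strip and cellulose synthase sums did not overlap between ages. The cyclin-B sums at 1 month and 4 months overlapped, and both lay above those of 20 days. In WT, with 1 library per age, the spread within an age is not known. The part of all these markers in the results was not tested. In bulk roots, fewer cells of a type and less RNA per cell cannot be told apart.

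Gibberellins are made from ent-kaurene by plastid and membrane enzymes, activated by 20-oxidases and 3-oxidases and inactivated by 2-oxidases. The active hormone binds the receptor GID1, which then targets the DELLA repressors for degradation. Brassinosteroids are made from sterols by cytochrome P450 enzymes and perceived by receptor kinases of the BRI1 family with the co-receptor BAK1, after which the transcription factors of the BZR family act in the nucleus. Both hormones are known for their effects on cell elongation, and gibberellin also for its effects on storage organ formation in potato.

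Of the 85 members, 54 passed the filter on low values, 33 gibberellin and 21 brassinosteroid genes. In MBP3-OE at 4 months against 20 days, 14 of the 54 were higher and 16 lower, against 17.5% and 17.8% of all genes tested. At 1 month against 20 days in MBP3-OE, 4 were higher and 6 lower (5.70% and 3.49% of all genes), and at 4 months against 1 month 6 were higher and 8 lower (7.48% and 9.56%). In WT at 4 months against 20 days, 5 members were higher and 13 lower (11.5% and 9.15% of all genes). The median log2 fold change of the 54 members was -0.47 in MBP3-OE and -0.54 in WT at 4 months against 20 days, beside 0.02 and 0.00 over all genes. The count at 1 month against 20 days in MBP3-OE was 3, 5 and 2 members without the 20-day libraries 2, 3 and 8, and the WT count at 4 months was 11 without the 20-day MBP3-OE library 8. The shares over all genes in these fits are not given here, so the drops cannot be read as particular to the members.

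The fold estimates of the genotypes rest on separate libraries, but their calls do not, since the WT calls use the spread of the MBP3-OE libraries. All 5 members called higher in WT were among the 14 called higher in MBP3-OE, which is the whole WT list and 35.7% of the MBP3-OE list. Of the called falls, 10 were shared, 76.9% of the 13 in WT and 62.5% of the 16 in MBP3-OE. The fitted change had the same sign in both genotypes for 45 of the 54 members, and none was called in opposite directions. The matching shares over all tested genes are not given here, so this agreement cannot be read as particular to the members.

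The split between rises and falls moved with the method. At 4 months against 20 days in MBP3-OE, limma-trend on log2(FPKM + 1) called 8 members higher and 21 lower (9.62% and 20.4% of all genes), and on log2(FPKM + 0.1) 10 higher and 22 lower (12.6% and 25.5%). At 4 months against 1 month the counts were 5 higher and 9 lower (3.68% and 13.5%) and 5 higher and 11 lower (4.52% and 17.9%). At 1 month against 20 days they were 3 higher and 11 lower (5.26% and 4.97%) and 7 higher and 9 lower (6.64% and 4.24%), and DESeq2 called 7 higher and 11 lower (7.87% and 6.25%). In WT at 4 months against 20 days DESeq2 called 11 higher and 17 lower (14.6% and 16% of all genes).

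**Figure D1:**
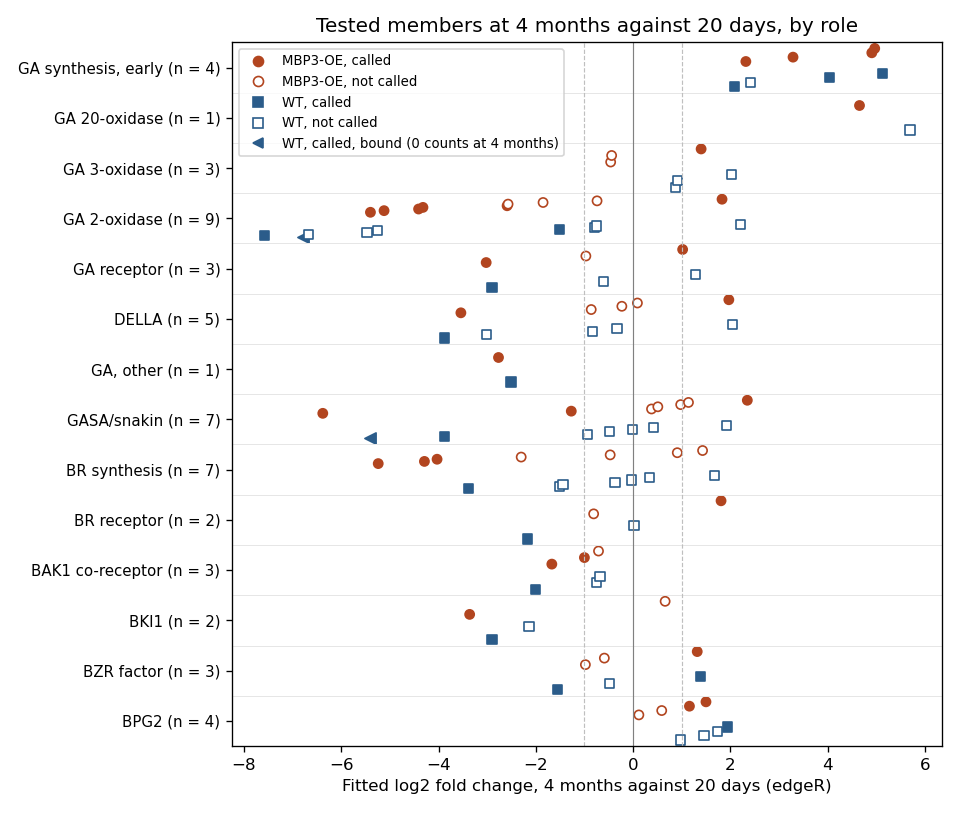
Fitted log2 fold change of each tested member at 4 months against 20 days, by role, in MBP3-OE (circles, upper row) and WT (squares, lower row); filled symbols were called, dashed lines mark a fold of 2 and triangles are bounds for genes without a count in the WT library at 4 months. All 4 early gibberellin synthesis genes lie to the right of 0 in both genotypes, and 8 of the 9 2-oxidases lie to the left.

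Genes of early gibberellin synthesis were higher in older roots. Of its 7 members, 4 were tested, and all 4 were called higher in MBP3-OE at 4 months against 20 days, 3 of them also in WT, with median log2 fold changes of 4.10 and 3.22. The gene with the largest values was ent-kaurene oxidase (KO, g60439, linkage group 15, 3514117 to 3517736), which carries out the first oxidation steps of ent-kaurene. Its FPKM was 1.55, 2.38 and 1.62 at 20 days, 8.63, 10.9 and 10.2 at 1 month and 46.8, 33.7 and 55.6 at 4 months in MBP3-OE, and 0.95, 3.02 and 31.0 in WT. The 3 ages did not overlap in MBP3-OE. By edgeR with Benjamini-Hochberg adjustment, the log2 fold change at 4 months against 20 days was 4.91 ± 0.31 (SE, adjusted p = 5.4e-05) in MBP3-OE and 5.13 ± 0.54 (adjusted p = 0.0020) in WT. The rises in MBP3-OE at 1 month against 20 days (2.34 ± 0.28, adjusted p = 0.0032) and at 4 months against 1 month (2.58 ± 0.28, adjusted p = 0.0020) also passed.

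The preceding enzyme, ent-kaur-16-ene synthase (KS, g19188, linkage group 5), was at 1.66, 1.73 and 1.65 FPKM at 20 days, 3.13, 4.46 and 2.78 FPKM at 1 month and 7.88, 6.18 and 6.48 FPKM at 4 months in MBP3-OE, and at 2.13, 2.90 and 8.41 FPKM in WT. Here too the ages did not overlap. Its rise at 4 months against 20 days was 2.32 ± 0.24 in MBP3-OE (edgeR adjusted p = 0.00024) and 2.08 ± 0.42 in WT (adjusted p = 0.011) on the log2 scale. Ent-kaurenoic acid oxidase (KAO) completes this stage, and its tested copies g57303 and g57312 both lie on linkage group 14. Gene g57303 was nearly silent in young roots, with 0.00895, 0.0749 and 0.0463 FPKM at 20 days, against 0.953, 0.494 and 0.607 FPKM at 1 month and 1.55, 0.651 and 1.34 FPKM at 4 months in MBP3-OE. Its WT values were 0.0814, 0.217 and 1.25 FPKM, and its log2 fold change at 4 months against 20 days was 4.97 ± 0.71 in MBP3-OE (adjusted p = 0.00086) and 4.04 ± 1.17 in WT (adjusted p = 0.041, edgeR). The copy g57312 rose by 3.29 ± 1.04 in MBP3-OE (adjusted p = 0.030). The WT call of g57303 was lost without any 1 of the number 8 MBP3-OE libraries (adjusted p up to 0.068), its 1-month call without the 20-day library 8 (adjusted p = 0.058), and the call of g57312 without the 20-day library 3 or the 4-month library 8 (adjusted p up to 0.096).

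Among the 20-oxidases, which form the precursors of active gibberellin, 1 of 3 was tested. This gene, g1633 (linkage group 1), was at 0.509, 0.237 and 0.00 FPKM at 20 days, 1.20, 2.07 and 0.712 FPKM at 1 month and 4.98, 3.74 and 6.33 FPKM at 4 months in MBP3-OE. In WT it was at 0.224, 0.495 and 11.1 FPKM. The rise at 4 months against 20 days was 4.65 ± 1.03 in MBP3-OE (edgeR adjusted p = 0.0066), and the WT estimate of 5.69 ± 1.87 did not pass (adjusted p = 0.060). The other 20-oxidases reached at most 0.113 FPKM in any library.

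The 3-oxidases make the bioactive forms. Only 3 of 12 were tested, all on linkage group 6, and 1 of them, g21175, was called. It had 2.96, 4.17 and 3.83 FPKM at 20 days, 6.44, 2.61 and 3.88 FPKM at 1 month and 7.30, 6.44 and 9.84 FPKM at 4 months in MBP3-OE, against 2.81, 5.08 and 10.6 FPKM in WT, a rise of 1.40 ± 0.39 in MBP3-OE at 4 months against 20 days (edgeR adjusted p = 0.018). The call was lost without the 20-day libraries 2 or 8 or the 4-month library 8 (adjusted p up to 0.064). Its neighbour g21176, and g21146 further along the linkage group, gave -0.44 ± 0.53 and -0.46 ± 0.45 and were not called. A cluster of 7 further 3-oxidase genes between 5274136 and 5394000 on linkage group 7 stayed below the filter. No 3-oxidase was called at 1 month.

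**Figure D2:**
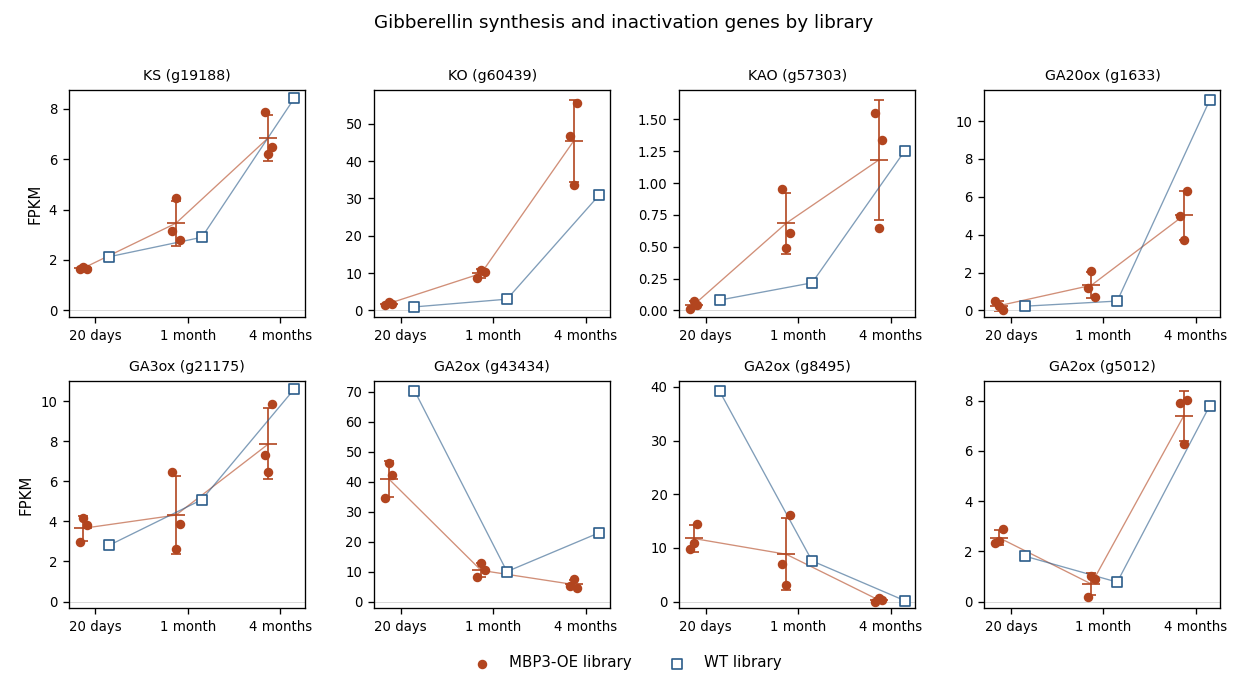
FPKM of 8 gibberellin synthesis and inactivation genes by age; filled circles are MBP3-OE libraries with their mean and SD (n = 3), open squares the single WT library of each age. KS, KO, KAO and the 20-oxidase climb with age, KO to 33.7 to 55.6 FPKM at 4 months in MBP3-OE, while the 2-oxidases g43434 and g8495 fall and g5012 dips at 1 month.

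The 2-oxidases, which inactivate gibberellin, went mostly the other way. Of 14 members 9 were tested, and at 4 months against 20 days in MBP3-OE 5 were called lower and 1 higher, with a median log2 fold change of -2.59. In WT 3 were lower and none higher, by edgeR, with a median of -5.26, the same with the gene that had no WT count at 4 months (g45839) set to its bound. Summed over the 14 genes, the 20-day MBP3-OE libraries held 112 to 143 FPKM, those of 1 month 43.5 to 60.3 FPKM and those of 4 months 20.3 to 44.0 FPKM, against 276, 61.3 and 40.9 FPKM in WT. Levels at 20 days were higher in WT than in any MBP3-OE library, although no single 2-oxidase was called between the genotypes at that age.

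The 2-oxidase g43434 (linkage group 11, 14099881 to 14101341) had already dropped at 1 month. It was at 34.5, 46.4 and 42.1 FPKM at 20 days, 8.09, 12.7 and 10.4 FPKM at 1 month and 5.04, 7.53 and 4.47 FPKM at 4 months in MBP3-OE, and at 70.4, 10 and 23 FPKM in WT. No MBP3-OE value at 1 or 4 months reached those of 20 days. On the log2 scale the changes against 20 days were -2.07 ± 0.22 at 1 month (edgeR adjusted p = 0.0027) and -2.59 ± 0.23 at 4 months (adjusted p = 0.00013) in MBP3-OE. In WT they were -3.0 ± 0.40 at 1 month (adjusted p = 0.045) and -1.51 ± 0.37 at 4 months (adjusted p = 0.024). The WT change at 1 month was the only member call of that comparison by edgeR (0.110% of all genes higher and 0.0677% lower), where DESeq2 called none higher and 2 lower (2.37% and 2.55%), and it was lost when any MBP3-OE library other than the 4-month library 2 was left out (adjusted p up to 0.11), and with RLE scaling or no filter. The 2-oxidase g54334 was at 34.0, 48.0 and 47.3 FPKM at 20 days, 16.5, 17 and 6.19 FPKM at 1 month and 1.22, 25.3 and 5.31 FPKM at 4 months in MBP3-OE, and at 111, 14.8 and 2.68 FPKM in WT, and passed in neither genotype (adjusted p = 0.10 and 0.057).

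In MBP3-OE the 2-oxidase g8495 was called lower at 4 months but not at 1 month. It lies on linkage group 2 and was at 9.76, 11 and 14.5 FPKM at 20 days and 7.07, 3.16 and 16.2 FPKM at 1 month, groups that overlap, and at 0.00, 0.599 and 0.257 FPKM at 4 months in MBP3-OE. WT gave 39.2, 7.57 and 0.178 FPKM, with a change at 1 month against 20 days that was not called (-2.56 ± 1.51, edgeR adjusted p = 0.54). The change at 4 months was -5.12 ± 1.02 against 20 days (edgeR adjusted p = 0.0039) and -4.62 ± 1.00 against 1 month (adjusted p = 0.015) in MBP3-OE, and -7.58 ± 1.96 against 20 days in WT (adjusted p = 0.028; lost without the 20-day MBP3-OE libraries 3 or 8, adjusted p up to 0.051). Gene g8685, with the same description on the same linkage group, had a similar pattern, though not the same order of libraries at 20 days. It was at 7.83, 6.50 and 10.5 FPKM, then 5.71, 2.36 and 14 FPKM, then 0.00, 0.488 and 0.00 FPKM in MBP3-OE and 23.7, 6.88 and 0.198 FPKM in WT. Such close copies may share reads, since no source says how reads with several alignments were counted. In MBP3-OE the changes of g8685 of -5.40 ± 1.26 against 20 days and -5.14 ± 1.25 against 1 month passed (edgeR adjusted p = 0.0082 and 0.021). The change against 1 month did not pass without the 1-month library 8 (adjusted p = 0.059). In WT its change of -6.68 ± 2.28 at 4 months against 20 days was not called. Gene g45839 had 3.12, 1.49 and 3.11 FPKM at 20 days, 0.0742, 0.789 and 0.472 FPKM at 1 month and 0.164, 0.133 and 0.00 FPKM at 4 months in MBP3-OE. Its 1-month values already lay below those of 20 days, with changes of -2.62 ± 0.95 at 1 month against 20 days (edgeR adjusted p = 0.10), -1.70 ± 0.99 at 4 months against 1 month (adjusted p = 0.23) and -4.32 ± 1.05 at 4 months against 20 days (adjusted p = 0.010), of which the last was called. In WT it had no count at 4 months against 3.10 FPKM at 20 days, at least 110.5-fold lower by a floor of 3 counts. That WT call was lost without the 20-day MBP3-OE libraries 2 or 8 (edgeR adjusted p up to 0.055). Gene g34757 was the fifth to fall in MBP3-OE (-4.41 ± 1.11, adjusted p = 0.012).

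The 2-oxidase 8 gene g5012 was the exception. In MBP3-OE it was at 2.35, 2.41 and 2.88 FPKM at 20 days, 0.198, 1.00 and 0.895 FPKM at 1 month and 7.92, 6.26 and 8.02 FPKM at 4 months, and in WT at 1.81, 0.772 and 7.80 FPKM. The 3 ages did not overlap and were lowest in the middle. Against 20 days it was changed by -1.95 ± 0.48 at 1 month (edgeR adjusted p = 0.034) and 1.83 ± 0.47 at 4 months (adjusted p = 0.013), and the rise at 4 months against 1 month was 3.78 ± 0.52 (adjusted p = 0.0038). Its neighbour g5011 was also lower at 1 month (-1.72 ± 0.48, adjusted p = 0.049) but gave -0.74 ± 0.47 at 4 months and was not called there. The call of g5011 was also lost with no filter. The 1-month call of g5012 was lost without any 20-day library or the 1-month library 8, and that of g5011 without any 20-day library or the 1-month libraries 2 or 3 (adjusted p up to 0.11 and 0.14).

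Of the 3 tested genes of the gibberellin receptor GID1, 1 was called lower and 1 higher in MBP3-OE at 4 months against 20 days, and in WT 1 was called, lower. The most abundant gibberellin member, the GID1B-like g9506, was at 212, 224 and 177 FPKM at 20 days, 149, 192 and 94.0 FPKM at 1 month and 66.4, 114 and 80.6 FPKM at 4 months in MBP3-OE, and at 194, 222 and 119 FPKM in WT. All 4-month MBP3-OE values lay below those of 20 days, but the log2 fold change of -0.97 ± 0.27 was short of a fold of 2 (edgeR adjusted p = 0.019), and in WT it was -0.60 ± 0.47 (adjusted p = 0.39). A second GID1B-like gene, g5433 on linkage group 2, was at 116, 120 and 83.9 FPKM, then 33.5, 68.9 and 15.1 FPKM, then 11.4, 12.4 and 8.72 FPKM in MBP3-OE, and at 102, 36.5 and 12.7 FPKM in WT. The ages did not overlap. Its change at 4 months against 20 days was -3.02 ± 0.48 in MBP3-OE (adjusted p = 0.0014) and -2.90 ± 0.83 in WT (adjusted p = 0.038). The GID1C gene g23726 was at 81.4, 60.6 and 74.4 FPKM at 20 days, 95.2, 121 and 77.0 FPKM at 1 month and 136, 106 and 115 FPKM at 4 months in MBP3-OE and at 59.3, 127 and 134 FPKM in WT. This gave 1.02 ± 0.23 in MBP3-OE (edgeR adjusted p = 0.0072) and 1.28 ± 0.40 in WT (adjusted p = 0.052). At 4 months GID1C was thus the most abundant receptor transcript in 2 of the 3 MBP3-OE libraries and in WT, whereas at 20 days it was the least abundant in every library. The receptor sum in MBP3-OE was 335 to 410 FPKM in the 20-day libraries, 186 to 381 FPKM after 1 month and 204 to 232 FPKM after 4 months, and 356, 385 and 266 FPKM in WT.

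The call of g23726 lay at the threshold, with log2 fold changes of 0.83 to 1.16 when 1 library was left out, and was lost without the 20-day library 3 or the 4-month libraries 2 or 8, as well as with RLE scaling, no filter, DESeq2 and limma-trend. The WT call of g5433 was lost without any 20-day MBP3-OE library (edgeR adjusted p up to 0.062). Its change of -1.49 ± 0.45 at 4 months against 1 month (adjusted p = 0.045) was lost without any 1 MBP3-OE library other than the 1-month library 8 (adjusted p up to 0.13).

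DELLA proteins repress gibberellin responses. Of 11 annotated genes 5 were tested, and 1 rose and 1 fell in MBP3-OE at 4 months against 20 days. The GAI1-like g50211, which had the highest level, was at 68.0, 48.6 and 58.3 FPKM, then 36.5, 78.4 and 54.0 FPKM, then 57.2, 41.0 and 23.6 FPKM in MBP3-OE, and at 60.6, 66.9 and 31.6 FPKM in WT. The ages overlapped and the change was -0.23 ± 0.35 in MBP3-OE and -0.83 ± 0.61 in WT (edgeR adjusted p = 0.61 and 0.35). The GAI-like g29775 was between 6.38 and 15.1 FPKM in the 12 libraries and was not called either (0.09 ± 0.40 in MBP3-OE). The DWARF8-like g26040 rose. It was at 3.52, 2.44 and 3.79 FPKM at 20 days, 8.42, 4.76 and 17.9 FPKM at 1 month and 10.6, 14.4 and 6.94 FPKM at 4 months in MBP3-OE, and at 3.26, 10.4 and 12.6 FPKM in WT (1.97 ± 0.46, adjusted p = 0.0084 in MBP3-OE, and 2.05 ± 0.80, adjusted p = 0.098 in WT, at 4 months against 20 days). The RGL2-like g7395 fell. Its values were 3.20, 2.57 and 2.94 FPKM, then 0.316, 2.57 and 1.21 FPKM, then 0.136, 0.294 and 0.175 FPKM in MBP3-OE and 1.84, 3.16 and 0.114 FPKM in WT. On the log2 scale this was -3.54 ± 0.65 in MBP3-OE (adjusted p = 0.0027) and -3.88 ± 1.16 in WT (adjusted p = 0.044). The WT call was lost without any 20-day library or the 1-month or 4-month library 8 (adjusted p up to 0.073). Its change at 4 months against 1 month (-2.34 ± 0.62, adjusted p = 0.029) was lost without the 20-day library 8, the 1-month libraries 3 or 8 or the 4-month libraries 2 or 8 (adjusted p up to 0.081).

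**Figure D3:**
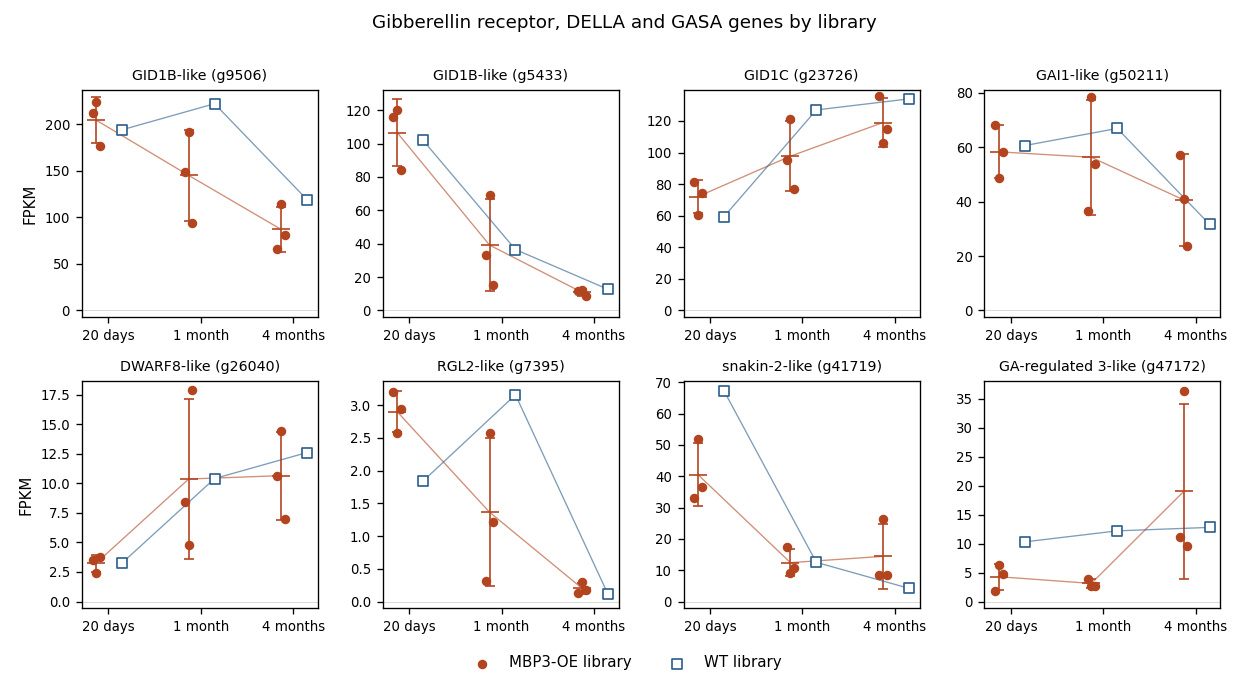
FPKM of 8 gibberellin receptor, DELLA and GASA genes by age; filled circles are MBP3-OE libraries with their mean and SD (n = 3), open squares the single WT library of each age. The GID1B-like g5433 drops to 8.72 to 12.4 FPKM in the 4-month MBP3-OE libraries, while GID1C stands at 106 to 136 FPKM there, and the 4-month MBP3-OE library 3 is high for g47172 (36.4 FPKM).

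Genes annotated as gibberellin-regulated include the GASA or snakin family of small cysteine-rich peptides, some of which are antimicrobial in potato. Of 11 such genes 7 were tested. At 4 months against 20 days in MBP3-OE 1 rose and 2 fell, and in WT 2 fell and none rose by edgeR. The snakin-2-like g41719 was at 33.1, 52.0 and 36.4 FPKM at 20 days, 17.3, 9.20 and 10.7 FPKM at 1 month and 8.44, 26.3 and 8.5 FPKM at 4 months in MBP3-OE, against 67.3, 12.5 and 4.22 FPKM in WT. In WT the change at 4 months was -3.88 ± 0.85 (edgeR adjusted p = 0.016), and in MBP3-OE -1.27 ± 0.44 (adjusted p = 0.044), after -1.77 ± 0.45 at 1 month (adjusted p = 0.037). The 4-month MBP3-OE call was lost without any 20-day library, the 1-month library 8 or the 4-month libraries 2 or 8 (adjusted p up to 0.14), and the 1-month call without any 20-day library or the 1-month libraries 3 or 8 (adjusted p up to 0.12). The snakin-1-like g60367 became nearly undetectable. It had 3.16, 4.27 and 3.69 FPKM at 20 days, 1.12, 0.776 and 3.10 FPKM at 1 month and 0.00, 0.00 and 0.102 FPKM at 4 months in MBP3-OE, that is 3 counts in the 4-month libraries together against 390 at 20 days. Scaled to the library totals this is a ratio of 0.00872 (95% exact interval 0.00179 to 0.0257, counting error only), with an edgeR adjusted p of 0.0018. In WT it had 3.95, 4.28 and 0.00 FPKM, at least 42.6-fold lower at 4 months than at 20 days by a floor of 3 counts (edgeR adjusted p = 0.023).

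The gene annotated as gibberellin-regulated protein 3-like, g47172, was at 1.88, 6.24 and 4.72 FPKM at 20 days, 3.94, 2.70 and 2.73 FPKM at 1 month and 11.1, 36.4 and 9.54 FPKM at 4 months in MBP3-OE, and at 10.3, 12.2 and 12.8 FPKM in WT. The 4-month MBP3-OE libraries lay above all younger ones, with library 3 far above the other two. The rise was 2.35 ± 0.58 against 20 days (edgeR adjusted p = 0.011) and 2.88 ± 0.59 against 1 month (adjusted p = 0.012). The WT estimate was 0.42 ± 0.96, and the difference between the genotypes' age effects (1.93 ± 1.12) did not pass (adjusted p = 0.59). The chitin-inducible gibberellin-responsive gene g255, a member of the GRAS family to which DELLA proteins also belong, fell stepwise. It was at 22.9, 31.1 and 31.2 FPKM, then 18, 9.54 and 12.9 FPKM, then 2.65, 4.97 and 2.78 FPKM in MBP3-OE, without overlap of ages, and at 28.1, 12.4 and 4.58 FPKM in WT. Its change at 4 months against 20 days was -2.78 ± 0.32 in MBP3-OE (adjusted p = 0.00035) and -2.51 ± 0.55 in WT (adjusted p = 0.016). The call at 1 month against 20 days (-1.14 ± 0.30, adjusted p = 0.043) was lost without any 20-day library or the 1-month libraries 3 or 8 (adjusted p up to 0.14).

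Of the 7 brassinosteroid synthesis genes, all tested, 3 were called lower and none higher by edgeR in MBP3-OE at 4 months against 20 days, and 1 was lower in WT. Cytochrome P450 90B1 is the C-22 hydroxylase known as DWF4 in Arabidopsis. Its gene g29306 (linkage group 7, 29490729 to 29494494) was at 37.9, 33.1 and 35.6 FPKM at 20 days, 4.57, 11.4 and 3.37 FPKM at 1 month and 0.367, 1.25 and 0.746 FPKM at 4 months in MBP3-OE, and at 14.5, 11.5 and 1.29 FPKM in WT. The MBP3-OE ages did not overlap. In MBP3-OE the log2 fold change was -2.55 ± 0.49 at 1 month against 20 days (edgeR adjusted p = 0.014), -2.69 ± 0.50 at 4 months against 1 month (adjusted p = 0.0088) and -5.24 ± 0.55 at 4 months against 20 days (adjusted p = 0.00025). In WT the last of these was -3.38 ± 0.88 (adjusted p = 0.029). At 20 days the MBP3-OE libraries were all above the WT library, a difference of 1.18 ± 0.70 that did not pass (adjusted p = 0.63). The MBP3-OE call at 1 month was lost without the 20-day libraries 2 or 8 (adjusted p up to 0.054) and the WT call without the 20-day library 8 (adjusted p = 0.051). The gene g29307, annotated alike, starts at 29494589, next to the end of g29306 on the same strand, and fell with it (-4.03 ± 1.06 in MBP3-OE at 4 months against 20 days, adjusted p = 0.014).

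The 3 genes annotated as cytochrome P450 85A1-like, the C-6 oxidase of the last synthesis steps, had 3 patterns. Gene g30023 was at 7.73, 7.64 and 13.1 FPKM at 20 days, 7.42, 1.20 and 4.32 FPKM at 1 month and 17.3, 23.9 and 22.6 FPKM at 4 months in MBP3-OE, and at 11.2, 4.08 and 33.3 FPKM in WT. All 4-month values lay above the younger ones. The rise at 4 months against 1 month was 2.62 ± 0.59 (edgeR adjusted p = 0.016), lost without the 1-month library 8 (adjusted p = 0.056), and that against 20 days 1.43 ± 0.56 (adjusted p = 0.064). Gene g17687 was at 2.24, 2.94 and 3.14 FPKM, then 2.08, 0.512 and 0.706 FPKM, then 0.00, 0.187 and 0.161 FPKM in MBP3-OE, a change of -4.29 ± 0.96 at 4 months against 20 days (adjusted p = 0.0069). In WT it was at 6.22, 2.26 and 5.67 FPKM, with an estimate of -0.03 ± 1.39, and the difference of the 2 age effects was -4.27 ± 1.75 (adjusted p = 0.42). Gene g1242 varied widely within ages, from 1.95 to 29.7 FPKM at 1 month in MBP3-OE against 64.3 FPKM in WT, and was called in no comparison. Cytochrome P450 90A1 (g20364), known as CPD in Arabidopsis, was at 11.3, 8.26 and 12 FPKM, then 8.55, 5.52 and 6.62 FPKM, then 26.4, 7.87 and 12.9 FPKM in MBP3-OE and at 13.3, 10.6 and 9.54 FPKM in WT. Its rise at 4 months against 1 month (1.58 ± 0.45, adjusted p = 0.037) was lost without any 20-day library, the 1-month libraries 3 or 8 or the 4-month libraries 2 or 8 (adjusted p up to 0.11), and the ages overlapped.

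The 3 receptor genes are described as BRI1-like 2, BRI1-like 3 and brassinosteroid LRR receptor kinase-like (g31718). Whether g31718 is BRI1 itself cannot be told from its description. It stayed at or below 0.103 FPKM. Genes annotated as the receptor SR160 lie outside the rule and are given further below. The BRI1-like 3 gene g61317 was at 24, 21.2 and 26.0 FPKM, then 16.3, 14.8 and 20.8 FPKM, then 12.4, 14.6 and 6.68 FPKM in MBP3-OE, and at 34.6, 24.4 and 7.13 FPKM in WT. The change at 4 months against 20 days was called in WT (-2.17 ± 0.47, edgeR adjusted p = 0.015) and was below a fold of 2 in MBP3-OE (-0.81 ± 0.26, adjusted p = 0.032). The difference between the genotypes, 1.36 ± 0.52, did not pass (adjusted p = 0.39). The BRI1-like 2 gene g50316 was at 6.29, 5.45 and 7.70 FPKM at 20 days, 7.07, 7.96 and 22.7 FPKM at 1 month and 29.4, 8.82 and 16 FPKM at 4 months in MBP3-OE, and WT was at 5.15, 5.85 and 4.83 FPKM. Its rise of 1.81 ± 0.56 in MBP3-OE (adjusted p = 0.028) was lost without any 20-day library or the 4-month libraries 2 or 8 (adjusted p up to 0.097), and the difference from WT, 1.79 ± 1.11, did not pass (adjusted p = 0.62).

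The co-receptor BAK1, which also serves other receptor kinases, had 3 genes, and 2 of them were called lower in MBP3-OE and 1 in WT at 4 months against 20 days. Gene g59478 was at 38.5, 35.6 and 40.2 FPKM, then 21.2, 19.6 and 30.8 FPKM, then 17.2, 17.2 and 12.6 FPKM in MBP3-OE, and at 49.0, 28.0 and 11.3 FPKM in WT. The ages did not overlap, and the change was -1.0 ± 0.21 in MBP3-OE (edgeR adjusted p = 0.0049) and -2.01 ± 0.37 in WT (adjusted p = 0.0085). In MBP3-OE it lay at the threshold, between -1.16 and -0.92 with 1 library left out, and was lost without the 20-day library 8 or the 4-month libraries 3 or 8. Gene g34286 gave -0.71 ± 0.15 in MBP3-OE, short of a fold of 2 (adjusted p = 0.0058). Gene g46638 gave -1.67 ± 0.61 (adjusted p = 0.050), and its call was lost without any MBP3-OE library other than the 1-month and 4-month libraries 3 (adjusted p up to 0.12). BKI1 is an inhibitor that keeps BRI1 inactive. Its gene g60415 was at 5.88, 6.53 and 8.72 FPKM, then 5.08, 3.69 and 3.63 FPKM, then 0.209, 1.42 and 0.143 FPKM in MBP3-OE, and at 8.20, 5.72 and 1.72 FPKM in WT (-3.36 ± 0.72, adjusted p = 0.0055 in MBP3-OE, and -2.14 ± 1.17, adjusted p = 0.21 in WT). The change at 4 months against 1 month (-2.52 ± 0.70, adjusted p = 0.032) was lost without any library other than the 4-month library 3 (adjusted p up to 0.068). The other BKI1-like gene, g41882, was at 0.661, 0.541 and 0.561 FPKM, then 1.03, 1.35 and 0.905 FPKM, then 0.557, 0.498 and 1.21 FPKM in MBP3-OE, which overlap, and at 1.53, 0.451 and 0.177 FPKM in WT, where its fall of 2.90 ± 0.86 on the log2 scale passed (adjusted p = 0.044) but not without any 20-day or 1-month MBP3-OE library (adjusted p up to 0.073).

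**Figure D4:**
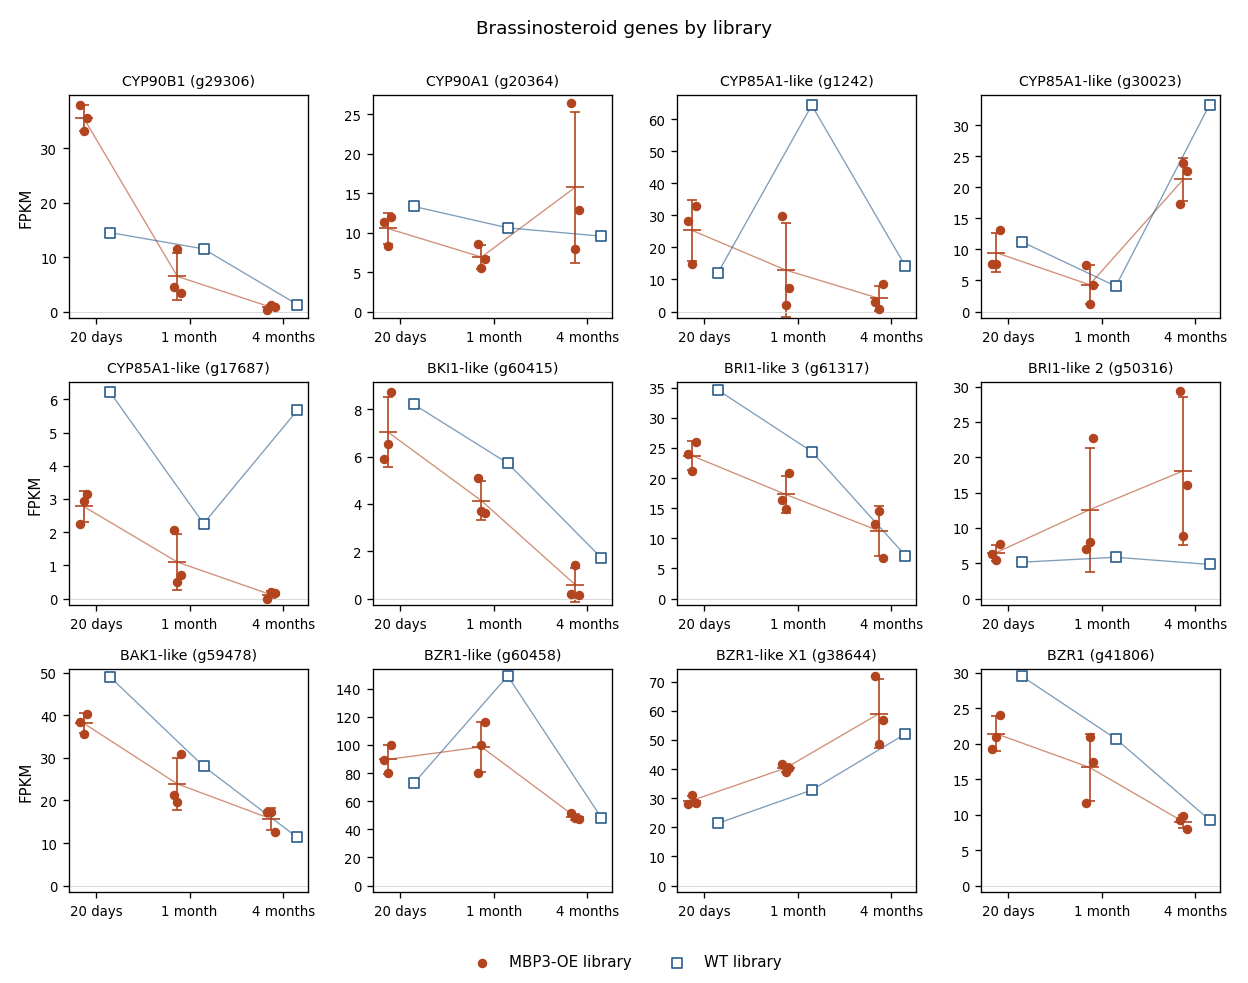
FPKM of 12 brassinosteroid synthesis, perception and response genes by age; filled circles are MBP3-OE libraries with their mean and SD (n = 3), open squares the single WT library of each age. CYP90B1 falls to 0.367 to 1.25 FPKM at 4 months in MBP3-OE, the 3 CYP85A1-like genes differ in pattern, and the BZR1-like g38644 climbs to 48.6 to 71.9 FPKM while g41806 stands at 7.99 to 9.81 FPKM there.

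Of 4 BZR factors, which carry the signal to the genes, 3 were tested. At 4 months against 20 days 1 was called higher and none lower in MBP3-OE, and 1 higher and 1 lower in WT. The most abundant brassinosteroid member, g60458, was at 89.1, 79.9 and 100 FPKM at 20 days, 80.2, 99.6 and 116 FPKM at 1 month and 51.5, 47.8 and 47.6 FPKM at 4 months in MBP3-OE, and at 72.9, 149 and 48.2 FPKM in WT. Its change of -0.59 ± 0.18 in MBP3-OE at 4 months against 20 days was under a fold of 2 (edgeR adjusted p = 0.028), and in WT it gave -0.49 ± 0.32 (adjusted p = 0.29). The isoform X1 gene g38644 was at 28.1, 31.0 and 28.5 FPKM, then 41.9, 38.9 and 40.2 FPKM, then 71.9, 48.6 and 56.7 FPKM in MBP3-OE, and at 21.4, 32.8 and 52.1 FPKM in WT. It rose without overlap of ages, by 1.32 ± 0.21 in MBP3-OE (adjusted p = 0.0015) and 1.39 ± 0.37 in WT (adjusted p = 0.030, lost without the 20-day MBP3-OE libraries 3 or 8, adjusted p up to 0.055). Gene g41806 was at 19.2, 21.0 and 24.1 FPKM, then 11.6, 20.9 and 17.5 FPKM, then 9.20, 9.81 and 7.99 FPKM in MBP3-OE, and at 29.5, 20.7 and 9.26 FPKM in WT, which was called in WT (-1.56 ± 0.37, adjusted p = 0.020) and fell just short of a fold of 2 in MBP3-OE (-0.98 ± 0.21, adjusted p = 0.0057).

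BPG2 is a chloroplast GTP-binding protein named after an Arabidopsis mutant with an altered response to brassinazole, an inhibitor of brassinosteroid synthesis. Of its 4 genes, 2 were called higher in MBP3-OE at both later ages. Gene g27430 was at 1.42, 1.93 and 1.62 FPKM, then 3.90, 4.51 and 3.87 FPKM, then 4.37, 4.30 and 2.92 FPKM in MBP3-OE, and at 1.74, 4.47 and 6.20 FPKM in WT. Against 20 days it rose by 1.22 ± 0.23 at 1 month (edgeR adjusted p = 0.015) and 1.5 ± 0.24 at 4 months (adjusted p = 0.0014) in MBP3-OE, and by 1.94 ± 0.41 at 4 months in WT (adjusted p = 0.014). Gene g27709 rose by 1.32 ± 0.31 at 1 month and 1.16 ± 0.31 at 4 months in MBP3-OE (adjusted p = 0.029 and 0.015). Gene g4296, the other abundant copy, was not called (0.12 ± 0.28 at 4 months in MBP3-OE). The 1-month call of g27430 was lost without the 20-day libraries 2 or 8 (adjusted p up to 0.067), that of g27709 without any 20-day library or the 1-month library 2 (adjusted p up to 0.11), and its 4-month call without the 20-day library 2 (adjusted p = 0.053). The sum of 19 chlorophyll a-b binding genes, which mark green tissue, was 67.5 to 157 FPKM, 209 to 901 FPKM and 3651 to 7456 FPKM at the 3 ages in MBP3-OE, and 58.7, 149 and 448 FPKM in WT, with 18 or 19 of the 19 above 0 in each library. Its part in the results was not tested.

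Few members were called between the genotypes. Averaged over ages, no member was called between MBP3-OE and WT by edgeR (0.103% of all genes were called higher and 0.0606% lower). At an unadjusted p under 0.05, with no fold threshold, there were 5 of 54 members. The shares of all genes given here and below are of adjusted calls, so they cannot be set against such unadjusted counts. DESeq2 called g60439 higher and g17687 lower (2.69% and 0.841% of all genes), limma-trend on log2(FPKM + 1) called g17687 lower and none higher (0.235% and 0.164%), and limma-trend on log2(FPKM + 0.1) called none. Age by age, edgeR called none at 20 days or at 1 month (0.00% of all genes called in either direction). At an unadjusted p under 0.05 there were 2 and 4 members, for which no share over all genes is given. At 20 days DESeq2 called no member either (1.14% of all genes higher and 0.652% lower), and at 1 month it called g60439 higher (1.5% higher and 0.659% lower), while limma-trend with either pseudocount called none at these ages. At 4 months 1 member was called lower in MBP3-OE than in the library labelled WT 4 months and none higher (0.242% and 0.103% of all genes). It was the 2-oxidase g43434, at 5.04, 7.53 and 4.47 FPKM in MBP3-OE against 23 FPKM in WT (-1.97 ± 0.28, edgeR adjusted p = 0.037). This call was lost without any 1 of 7 MBP3-OE libraries, all but the 1-month library 2 and the 4-month library 3, with an adjusted p up to 0.097. The CYP85A1-like g17687, at 0.00, 0.187 and 0.161 FPKM in MBP3-OE against 5.67 FPKM in WT, had the larger difference of -5.53 ± 1.11 and did not pass in edgeR (adjusted p = 0.089), while DESeq2 and limma-trend with either pseudocount called it lower. DESeq2 and limma-trend on log2(FPKM + 1) each called these 2 members lower and none higher (1.87% and 2.0% of all genes by DESeq2, 0.417% and 0.171% by limma-trend), and limma-trend on log2(FPKM + 0.1) called g17687 alone (0.157% lower and 0.121% higher).

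The age effects of the genotypes were also compared directly. For 4 months against 20 days, edgeR called no member and no gene (0.00% in either direction). At an unadjusted p under 0.05 there were 6 members, for which no share over all genes is given. DESeq2 called 1 member, the BKI1-like g41882, as higher (1.19% of all genes higher and 1.47% lower), and limma-trend with either pseudocount none. For 1 month against 20 days edgeR called no member and no gene either (0.00%). At an unadjusted p under 0.05 there was 1 member, again without a share over all genes. Neither DESeq2 (0.353% of all genes higher and 0.299% lower) nor limma-trend called a member. With 1 WT library per age the standard errors of these differences were wide, for example -0.21 ± 0.53 for g60439 and -1.86 ± 0.95 for g29306 on the log2 scale.

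The members closest in pattern to the most abundant gene of each hormone were listed by Pearson's r of log2(FPKM + 1) over the 12 libraries, as a description over libraries that share ages. The GID1B-like g9506 was most like CYP90B1 g29306 (r = 0.89), the other GID1B-like gene g5433 (r = 0.89) and the BKI1-like g60415 (r = 0.87). The BZR1-like g60458 was most like the snakin-1-like g60367 (r = 0.80), the RGL2-like DELLA g7395 (r = 0.80) and the BAK1-like g34286 (r = 0.75).

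The 31 members below the filter were 9 3-oxidases, 6 DELLA genes, 5 2-oxidases, 4 GASA genes, 3 early synthesis genes, 2 20-oxidases, 1 receptor and 1 BZR factor. None exceeded 2.31 FPKM in any library, and each had to have a mean below 0.5 FPKM, so they were fitted only in the alternative with no filter, where at 4 months against 20 days in MBP3-OE 1 was called higher and 1 lower (10.8% and 12.9% of the 45142 genes fitted), both named after their values were seen. The 3-oxidase g31427 (linkage group 8) had no count in any 20-day MBP3-OE library, 0.00, 0.147 and 0.189 FPKM at 1 month and 2.31, 0.784 and 0.652 FPKM at 4 months, which is at least 111.5-fold higher at 4 months by a floor of 3 counts over the group (edgeR adjusted p = 0.0053). In WT it was listed at 0 at 20 days and 1 month and at 0.0832 FPKM at 4 months. The 2-oxidase g5548 (linkage group 2) was at 0.36, 0.0833 and 0.371 FPKM at 20 days and had no count in any later MBP3-OE library, at least 17.37-fold lower at 4 months (adjusted p = 0.047). In WT it was at 0.121, 0.231 and 0.00 FPKM. No member below the filter was called in any other comparison of that fit.

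Other genes of these pathways, which the chosen words do not cover, were counted by the same test. Of 42 such genes 35 were tested, and at 4 months against 20 days 6 were higher and 5 lower in MBP3-OE, and 5 higher and 6 lower in WT. Of all tested genes, 17.5% were higher and 17.8% lower in MBP3-OE and 11.5% and 9.15% in WT, and the median log2 fold change of the 35 was 0.06 in MBP3-OE and -0.23 in WT. Among the rises was delta(24)-sterol reductase (g34949), an enzyme of sterol supply, at 6.19, 9.73 and 7.21 FPKM, then 14.5, 21.1 and 40.2 FPKM, then 46.8, 33.9 and 34.3 FPKM in MBP3-OE, and at 7.33, 9.05 and 35.2 FPKM in WT (2.61 ± 0.38 in MBP3-OE, edgeR adjusted p = 0.00097). Of 5 tested genes of the steroid 5-alpha-reductase DET2, which acts in brassinosteroid synthesis, g11956 and g11954 rose by 1.02 ± 0.24 and 1.23 ± 0.26 in MBP3-OE (adjusted p = 0.0089 and 0.0058). The others were not called there, with 0.93 ± 0.28 for g11959, 0.92 ± 0.35 for g12108 and -1.32 ± 0.61 for g3671 (edgeR adjusted p = 0.023, 0.061 and 0.11), and g3671 was called lower at 4 months against 1 month (-2.15 ± 0.62, adjusted p = 0.038). The BES1/BZR1 homolog g17064 fell by 1.61 ± 0.27 on the log2 scale in MBP3-OE and by 1.93 ± 0.48 in WT (adjusted p = 0.0019 and 0.024). The CYP734A1-like gene g51360, of a family that inactivates brassinosteroids in Arabidopsis, fell by 1.78 ± 0.37 in MBP3-OE and by 3.93 ± 0.69 in WT (adjusted p = 0.0047 and 0.0072). Of the other tested BES1/BZR1 homologs, g34697 was called lower and g63903 higher in MBP3-OE at 4 months against 20 days. Their changes were -1.30 ± 0.34 and 1.12 ± 0.40 (edgeR adjusted p = 0.013 and 0.045). The other tested CYP734A1 genes, g41793, g41794 and g26049, were not called there. They gave -0.28 ± 0.32, -0.43 ± 0.24 and -1.37 ± 0.52 (edgeR adjusted p = 0.50, 0.17 and 0.057). In WT they gave -0.44 ± 0.56, -0.22 ± 0.42 and -3.54 ± 0.97, and the last of them, g26049, was called lower. The remaining rises in MBP3-OE at 4 months against 20 days were of the cytochrome P450 gene g20456 and the shaggy-related kinase g59408. They were 1.87 ± 0.3 and 2.24 ± 0.27 (edgeR adjusted p = 0.0015 and 0.0004), beside 1.8 ± 0.52 and 3.03 ± 0.48 in WT. The remaining falls were of the cytochrome P450 gene g10002 (-2.42 ± 0.59, adjusted p = 0.0099) and the shaggy-related kinase g9250 (-1.2 ± 0.22, adjusted p = 0.0029). In WT these gave -3.74 ± 1.09 and -2.09 ± 0.4. Not counted among the 42 were 2 CYP90C/D genes, whose descriptions lack the words cytochrome P450 90. The tested one, g17000 (3-epi-6-deoxocathasterone 23-monooxygenase), was not called at 4 months against 20 days. It gave 0.22 ± 0.24 in MBP3-OE (edgeR adjusted p = 0.48) and -0.48 ± 0.42 in WT. Also not counted were 12 genes annotated as systemin receptor SR160, a name used in tomato for a BRI1-type receptor. Of these 4 were tested, and at 4 months against 20 days in MBP3-OE 1 was higher, 1 lower and 2 were not called. The higher one, g702, was at 0.191, 0.289 and 0.303 FPKM at 20 days, 2.82, 2.16 and 3.15 FPKM at 1 month and 2.09, 4.20 and 1.59 FPKM at 4 months in MBP3-OE, and at 0.106, 0.909 and 3.04 FPKM in WT (3.56 ± 0.38 in MBP3-OE at 4 months against 20 days, adjusted p = 0.00026). The lower one, g8767, was at 0.906, 0.82 and 1.02 FPKM, then 0.212, 0.372 and 0.56 FPKM, then 0.0763, 0.386 and 0.148 FPKM in MBP3-OE, and at 1.35, 0.412 and 0.244 FPKM in WT (-1.94 ± 0.53 in MBP3-OE, edgeR adjusted p = 0.017). The sum over the 12 was 19.3 to 22.8 FPKM, 16.1 to 20.1 FPKM and 11.3 to 21.1 FPKM at the 3 ages in MBP3-OE, and 23.6, 17.1 and 12.7 FPKM in WT. These genes were picked after their values were seen.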

How the data were processed

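The authors' deposited table gives each gene and library an FPKM value and a count, which is a whole number. Per the labels and the study's methods, reads were trimmed with cutadapt 1.9, aligned with HISAT2 2.0.4 to a sweetpotato genome and quantified with StringTie 1.3.4d. How the counts were made and the genome build are not given in the sources used here. Coordinates are those of the deposited table. The 12 libraries were grouped by their labels into 6 groups of genotype and age.

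Counts were scaled by TMM and tested with edgeR 4.0.16 (quasi-likelihood, 6 residual degrees of freedom) in R 4.3.3 over the 28065 genes whose FPKM averaged 0.5 or more, with Benjamini-Hochberg adjustment over all of them and a threshold of 0.05 and a fold of 2. Deposited FPKM values were used for levels. Standard errors are of the log2 fold change. The script was tested on simulated data. Alternatives were RLE scaling, no filter, DESeq2 1.42.0, limma-trend (limma 3.58.1) on log2(FPKM + 1) and log2(FPKM + 0.1), MBP3-OE libraries only, the library number as a block, and each MBP3-OE library left out. The WT libraries were not left out, since each is the only one of its age. The comparisons between genotypes at each age, and of their 1-month effects, were chosen after seeing the data.

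Members and lists were chosen with earlier results of these data known. The text names the 4 largest called rises and falls of each comparison, the 2 most abundant members of each role, members called in the difference of age effects, and the 3 members most alike in pattern to the most abundant one of each hormone. Another 8 tested members and 2 below the filter were named after their values were seen.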

Additional observations from a re-analysis of the deposited data

How the results depend on the processing

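Of 74 calls of named members, 39 were kept under every alternative, 35 were lost under at least 1 and none changed direction. The number of members called at 1 month against 20 days in MBP3-OE was 10, against 18 by DESeq2, 16 by limma-trend on log2(FPKM + 0.1) and 2 to 14 with 1 library left out. At 4 months against 20 days it was 30 in MBP3-OE, with 24 to 32 when 1 library was left out, and 18 in WT, against 28 by DESeq2 and 11 to 23. At 4 months against 1 month it was 14, with 10 to 17. The single WT call at 1 month was absent (0 calls) with RLE scaling or no filter, DESeq2 called 2, and 0 to 1 were called with 1 library left out. Between genotypes over all ages 0 were called, against 2 by DESeq2, 1 by limma-trend on log2(FPKM + 1) and 0 to 1 with 1 library left out. The single call at 4 months became 2 by DESeq2 and by limma-trend on log2(FPKM + 1), and 0 to 2 with 1 library left out. DESeq2 also called 1 member between genotypes at 1 month and 1 in the difference of the 4-month effects. Limma-trend with 1 or both pseudocounts lost calls of g19188, g20364 and g7395 at 4 months against 1 month, of g21175, g23726, g27430, g27709, g38644 and g50316 at 4 months and of g57303, g27430 and g27709 at 1 month against 20 days in MBP3-OE, of g7395 in WT and of g43434 between genotypes at 4 months. Without the filter the calls of g255 and g5011 at 1 month in MBP3-OE and of g41882 and g7395 at 4 months in WT were lost. The cause of these changes was not tested. For the fits with 1 library left out and for the replicate block below, shares over all genes are not given here.

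With the library number as a replicate block over the MBP3-OE libraries, 7, 29 and 13 members were called at 1 month against 20 days, 4 months against 20 days and 4 months against 1 month. Deviations of same-numbered libraries correlated at -0.049 to 0.097, and those of differently numbered libraries at -0.107 to 0.108. These correlations over all genes cannot decide whether the numbers pair the samples, for instance as lines. The block ended 7 of 54 calls of named members, those of g255, g41719, g5012 and g27709 at 1 month against 20 days, g23726 and g46638 at 4 months against 20 days and g8685 at 4 months against 1 month. Limma-trend on FPKM moved the median of all genes at 4 months against 20 days in MBP3-OE to -0.20 with a pseudocount of 1 and -0.29 with 0.1, beside 0.02 in edgeR.

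Limits are the single WT library per age, whose spread is assumed to equal that of MBP3-OE, the MBP3 level that does not separate the labels at 4 months, and members near 0 FPKM, whose fitted folds depend on few counts.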
